A study of Homo sapiens with 2 samples.

Results

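Certain entries of the miRNA catalogue miRBase have sequences that resemble pieces of other, more abundant RNAs. A list of 9 entries made on this basis is described here in HepG2 cells, a human liver cancer line. The entries were chosen by name. Of these, hsa-miR-1260a and hsa-miR-1260b resemble transfer RNA (tRNA), and hsa-miR-1246 resembles the U2 small nuclear RNA. hsa-miR-4485-5p and hsa-miR-4485-3p resemble mitochondrial ribosomal RNA (rRNA), hsa-miR-3656 and hsa-miR-7641 resemble rRNA, and hsa-miR-3653-3p resembles a small nucleolar RNA (snoRNA). For hsa-miR-1290 no such RNA is named here. The entries are 9 of the 2549 human miRNAs on the array. They were listed with results of these arrays already known, so each value below is a description. HepG2 cells that received Ad-uc.372, an adenoviral vector overexpressing the ultraconserved RNA uc.372, a transcript from sequence identical in several mammals, were compared with HepG2 cells that received Ad-NC, the control adenovirus, both after 48 h. The former condition is called overexpression below. The promoter of the vectors was not given in the sources used here. Each condition had 1 array of 1 total RNA sample, so the differences have no replicate check and no test was made. The deposited title and the text of the study name overexpression for these arrays, on which each direction below rests, although 1 supplementary plot has the inhibitor suffix on its axes.

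A canonical miRNA is cut from a hairpin by Drosha and Dicer, is loaded into an Argonaute protein and recognises messenger RNAs mainly through its seed, bases 2 to 8 from the 5′ end. tRNAs carry amino acids to the ribosome, rRNAs form its core, the U2 RNA recognises the intron branch point in the spliceosome, and snoRNAs guide chemical modification of rRNA. All of these are far more abundant than most miRNAs, and pieces of them are found among small RNAs. The labelling used here ligated a Cy3 dye to the ends of dephosphorylated total RNA, and the array reads what binds each probe. A fragment of a longer RNA with the sequence of a mature miRNA therefore cannot be told apart from it by the signal. How far precursors bind the probes was not tested.

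Mature sequences were available in RefSeq (GRCh38.p14) for 5 of the 9 entries. Only these are shown, and capitals mark the seed.
miR-1260a: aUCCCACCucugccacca
miR-1260b: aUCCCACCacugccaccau
miR-1246: aAUGGAUUuuuggagcagg
miR-1290: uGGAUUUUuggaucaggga
miR-4485-3p: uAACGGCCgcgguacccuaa
The seed of miR-1260a and miR-1260b was the same. Over the 18 bases compared from the 5′ end, 17 were identical and the difference was U9A (miR-1260a first), and miR-1260b was 1 base longer. Of the 2248 miRNAs on the array with a sequence, no other shared a seed with any of these 5 entries. The seeds of miR-1246 and miR-1290 differed, but both sequences held a common run of 12 bases, in capitals here.
miR-1246: aaUGGAUUUUUGGAgcagg
miR-1290: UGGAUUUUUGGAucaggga
The mature 5p arm of miR-4485 was not listed, and the hairpin is shown in its place with the 3p arm, bases 31 to 50, in capitals.
MIR4485: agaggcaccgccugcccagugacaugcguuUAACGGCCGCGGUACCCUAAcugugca
In RefSeq, MIR4485 on chromosome 11 overlaps MTRNR2L8, a pseudogene of the family that copies the mitochondrial 16S rRNA gene into the nucleus. MIR1260B (chromosome 11) lies within the span of MAML2, MIR1260A (chromosome 14) within that of NGB and MIR1290 (chromosome 1) within that of ALDH4A1, all protein-coding genes, and MIR1246 (chromosome 2) overlaps no other gene of the table.

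The signal of a spot is its brightness after background subtraction, in arbitrary intensity units. A spot counts as well above background by a flag of the scanner software, and the signal of the dimmest spot with that flag, 21.1 for Ad-NC and 17.3 for overexpression, is called the limit of the array here. A probe needed the flag on at least 50% of its spots to pass as well above background. The 9 entries had 19 probes and 180 spots on each array, of which 5 on the Ad-NC array and 2 on the overexpression array were not used because the software marked them as outliers. Across the array, 6.87% of 5893 probes passed with Ad-NC and 7.62% with overexpression, and no spot was saturated. Of the liver lineage markers, miR-192-5p and miR-194-5p were well above background on both arrays and miR-122-5p on neither, and 0 of 10 markers of blood, endothelium, muscle, fibroblasts or neurons were.

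Of the 9 entries, 7 were well above background on both arrays, or 77.8%, against 8.98% of all miRNAs. miR-3653-3p was well above background with overexpression only, as were 1.22% of all miRNAs, and miR-1290 on neither array. Counted by probe, 13 of the 19 were well above background with Ad-NC and 15 with overexpression. For 13 probes this held on both arrays, and the plot of spot signals shows each of them. The error given with a mean is the SD between spots of 1 probe, which is technical.

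**Figure D1:**
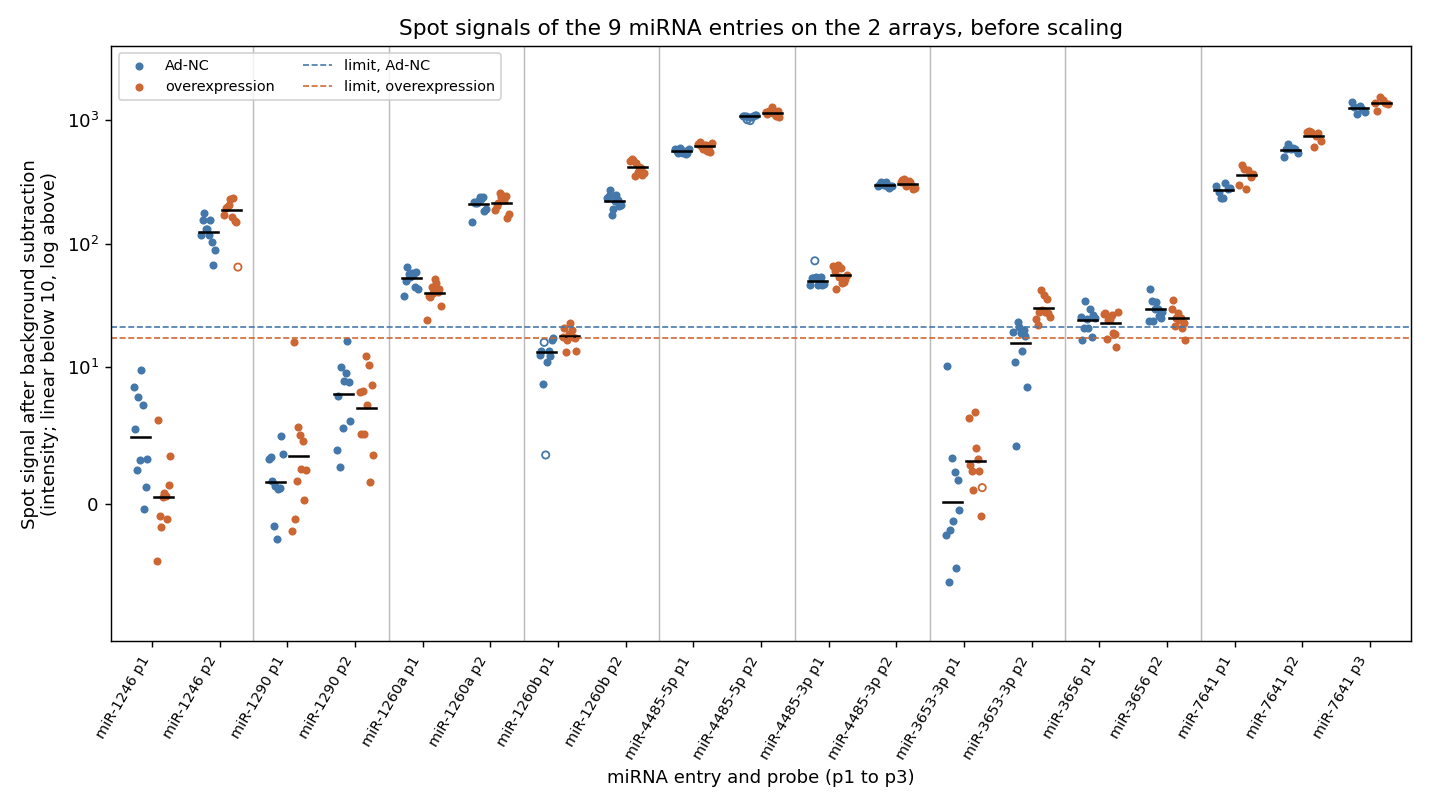
Signal of every spot (y axis, intensity units, linear below 10 and logarithmic above) for the 19 probes of the 9 miRNA entries (x axis), before scaling. Points are spots with Ad-NC (blue) or overexpression (orange), open points are outliers that were left out, black bars are means and dashed lines the limits of the arrays, 21.1 and 17.3. The second probe of miR-1260b is the pair of columns with no overlap, and both probes of miR-1290 lie below the limits.

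For comparison between the arrays, spot signals were set to log2, with spots under the limit raised to it, averaged over a probe, and lowered by the 75th percentile of the probes that passed on both arrays. Over the 229 miRNAs measured on both arrays, the median log2 difference, overexpression minus Ad-NC, was -0.17 and the SD 0.29. Among the 7 entries the median was -0.11, with a range from -0.42 to 0.69. Of these, 3 were higher with overexpression and 4 lower, against 26.2% higher among all 229. The study's methods pair a 1.5-fold threshold with a t-test, on values normalized otherwise, and here only the fold was used. Only miR-1260b passed 1.5-fold, as did 3.93% of all measured miRNAs in either direction and 1.31% as higher. No entry passed it as lower, against 2.62% of all. Of the other entries, the sign held in each alternative for miR-1246 only. Leaving out the scaling adds 0.23 to each difference and the 75th percentile over all probes adds 0.48, and the order of the entries does not change with such a constant.

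**Figure D2:**
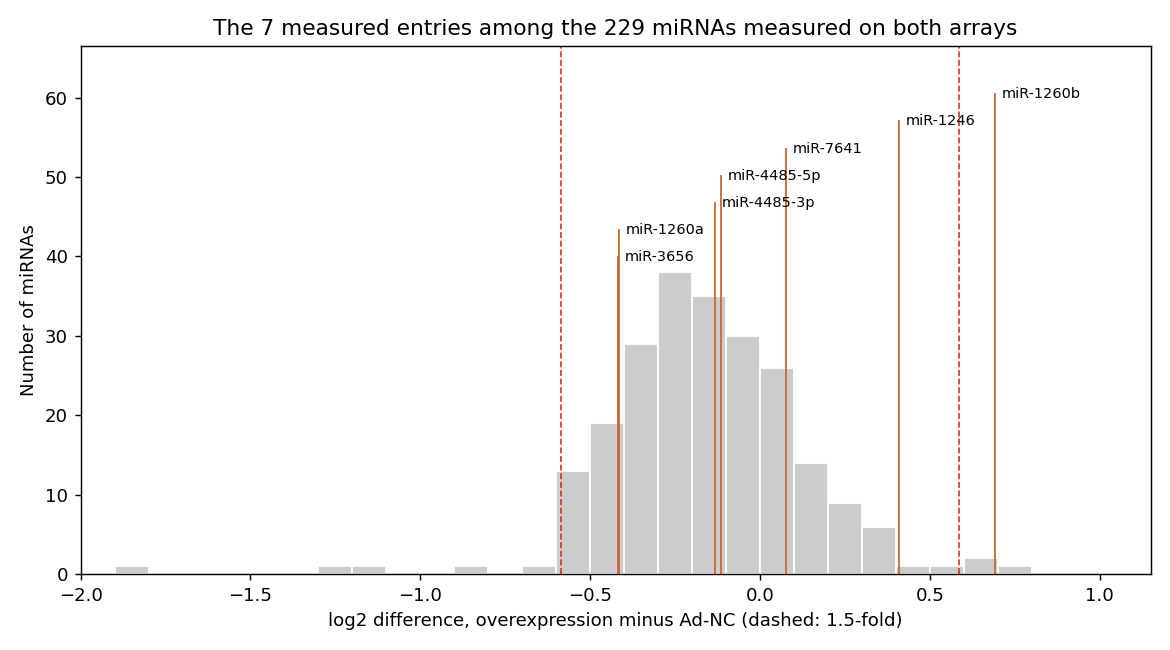
Number of miRNAs (y axis) by log2 difference, overexpression minus Ad-NC (x axis), for the 229 miRNAs measured on both arrays, with the 7 measured entries as orange lines and 1.5-fold as dashed lines. miR-1260b lies past the upper 1.5-fold line at 0.69, miR-1246 lies at 0.41, and the others lie between -0.42 and 0.08.

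Of the tRNA-like pair, miR-1260b was higher with overexpression and miR-1260a was not. The second probe of miR-1260b had a signal of 222 ± 30.4 (SD, 10 spots) with Ad-NC, from 170 to 272. With overexpression it had 418 ± 49.8 (10 spots), from 356 to 484. All 10 spots with overexpression were brighter than the brightest with Ad-NC, and this held after scaling too, as it did for 1.53% of the 393 probes measured on both arrays. The log2 difference was 0.69, or 1.61-fold, with a combined spot SD of 0.27, and was the 2nd highest of 229. This value rests on 1 of 2 probes. It fell short of 1.5-fold with the background correction normexp, at 0.53, and when the dim first probe was averaged in, at 0.35. The first probe was under the limit with Ad-NC, at 13.1 ± 2.74 (8 spots, none well above background), and at the limit with overexpression, at 17.8 ± 2.96 (10 spots, 7 of them well above background). Its signal was thus also higher with overexpression before scaling, but gives no difference between measured levels. By the log2 difference, over 2 arrays, the miRNAs nearest to miR-1260b were miR-21-5p, which is abundant in many tumours, at 0.76 and miR-19a-3p at 0.61, with combined spot SDs of 0.92 and 0.61, close to or above the differences themselves.

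The entry with the same seed, miR-1260a, was not higher with overexpression on either probe after scaling. Its second probe read 210 ± 28.0 with Ad-NC, from 149 to 240, and 215 ± 32.8 with overexpression, from 162 to 257, each over 10 spots. These spots overlapped almost fully, and the log2 difference after scaling was -0.20 with a combined spot SD of 0.31, close to the median of all miRNAs. Its first probe read 52.3 ± 8.30 with Ad-NC, from 37.5 to 64.2, and 39.8 ± 8.06 with overexpression, from 23.9 to 51.7. Here the spots with overexpression were dimmer, with 7 of 10 before and 3 of 10 after scaling at least equal to the dimmest Ad-NC spot, and the log2 difference was -0.63 with a combined spot SD of 0.40. The mean over both probes was -0.41 with a combined spot SD of 0.36. The gap between its probes, 0.44, exceeded the 3rd quartile of such gaps, 0.22 over 157 miRNAs with several measured probes. The entries, which differ by U9A and by 1 base at the 3′ end, thus had log2 differences of opposite sign, 0.69 and -0.41. Whether other RNAs bind these probes was not tested.

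The entry that resembles the U2 RNA, miR-1246, was brighter with overexpression on its measured probe, with overlapping spots. This second probe had 124 ± 33.4 with Ad-NC (10 spots), from 66.6 to 178, and 189 ± 31.8 with overexpression (9 spots), from 149 to 234. Of the 9 spots, 4 were no brighter than the brightest with Ad-NC before scaling, and 7 after it. The log2 difference was 0.41, or 1.33-fold, the 5th highest of 229, but within its combined spot SD of 0.49. With Ad-NC the spots of this probe varied by 26.9% of their mean, more than 95.4% of the 393 probes, whose median was 10.6%. The spot left out as an outlier with overexpression was the dimmest, at 64.6, and with outlier spots kept the log2 difference was 0.28. The first probe of miR-1246 stayed at background, at 4.89 ± 3.40 and 0.54 ± 2.84.

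miR-1290, which shares the 12-base run with miR-1246, was at background on both arrays. Its first probe had 1.65 ± 2.35 with Ad-NC and 3.53 ± 5.07 with overexpression, and its second 8.01 ± 3.83 and 7.05 ± 3.21, each over 10 spots. None of these spots was well above background, so no difference is given.

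The arms of miR-4485, which resemble mitochondrial rRNA, stayed near the median of all miRNAs. Their spots had combined SDs of 0.084 to 0.11 on 3 of the 4 probes and 0.24 on the first probe of miR-4485-3p. For miR-4485-5p the first probe had 561 ± 22.1 with Ad-NC, from 533 to 593, and 618 ± 38.9 with overexpression, from 551 to 672, each over 10 spots. Its second probe had 1082 ± 14.1 with Ad-NC (8 spots) and 1151 ± 65.8 with overexpression (10 spots). Before scaling most spots with overexpression were thus the brighter ones, by 1.103-fold and 1.06-fold in the mean, and after scaling the log2 differences were -0.087 and -0.14. For miR-4485-3p the first probe had 49.98 ± 3.67 with Ad-NC (9 spots) and 55.8 ± 8.15 with overexpression (10 spots). The second probe had 299 ± 11.52 and 307 ± 19.4, and the log2 differences were -0.078 and -0.19. The arms had mean log2 differences of -0.11 and -0.13, which lay 0.053 and 0.033 above the median of all 229, and the second was within its combined spot SD of 0.19.

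Of the entries that resemble rRNA, miR-7641 was brighter before scaling on each of its 3 probes. The first had 271 ± 28.9 with Ad-NC, from 235 to 313, and 361 ± 57.0 with overexpression, from 277 to 432, each over 7 spots. The second had 577 ± 43.4, from 508 to 646, and 750 ± 77.0, from 609 to 813, each over 7 spots. The third, with 6 spots, had 1249 ± 96.7, from 1133 to 1396, and 1376 ± 120, from 1177 to 1530. The ranges overlapped on each probe, with 2, 1 and 4 spots with overexpression no brighter than the brightest with Ad-NC. After scaling the log2 differences were 0.17, 0.15 and -0.088, so the probes disagreed in sign, as in 19.1% of the 157 miRNAs with several measured probes. Their mean was 0.078 with a combined spot SD of 0.22.

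miR-3656, the other entry of this kind, lay close to the limit. Its first probe had 24.0 ± 5.38 with Ad-NC, from 16.5 to 34.1, and 22.6 ± 4.90 with overexpression, from 14.6 to 27.9. Of the 10 spots, 6 and 8 were well above background. Its second probe had 29.7 ± 6.07, from 23.5 to 43.2, and 24.8 ± 5.002, from 16.7 to 34.7. The spots of both probes overlapped widely, and the log2 differences were -0.36 and -0.48, with combined spot SDs of 0.37 and 0.39. The mean of -0.42 was the 29th lowest of 229, and was set in part by spots raised to a different limit on each array.

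**Figure D3:**
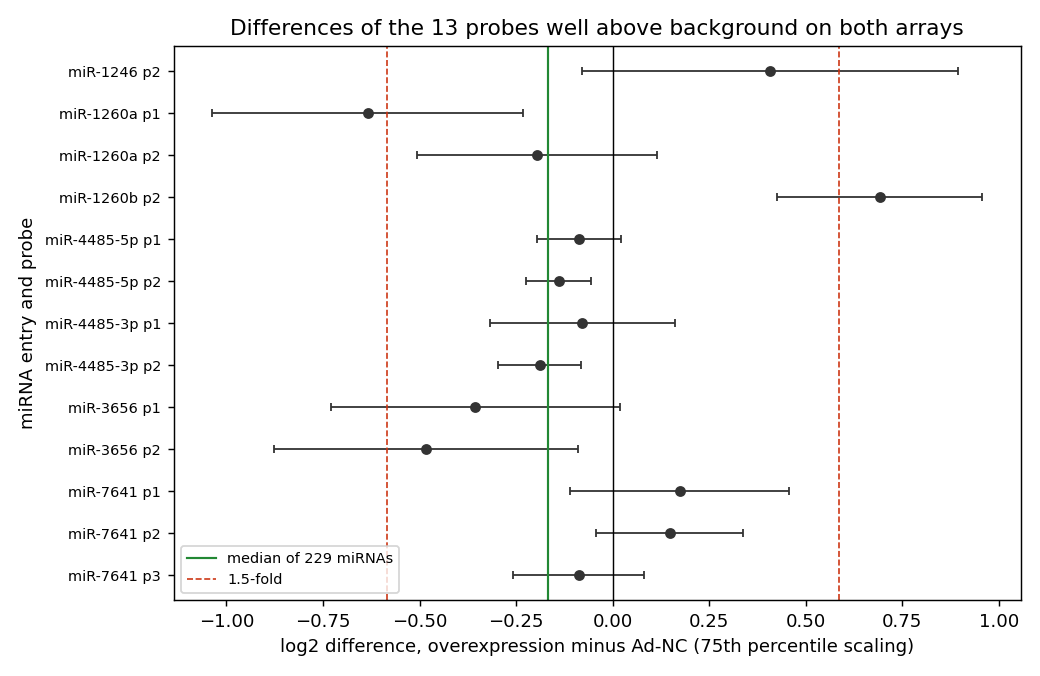
Log2 difference, overexpression minus Ad-NC, after 75th percentile scaling (x axis) for the 13 probes of the entries measured on both arrays (y axis). Bars are the combined spot SD, the green line the median of 229 miRNAs, -0.17, and dashed lines 1.5-fold. The measured probe of miR-1260b lies past the upper line and the first probe of miR-1260a, at -0.63, past the lower one, and the shortest bars are those of both miR-4485-5p probes and the second miR-4485-3p probe.

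miR-3653-3p, the snoRNA-like entry, passed the limit with overexpression only. Its second probe had 15.7 ± 6.15 with Ad-NC, from 4.25 to 23.3, with 1 of 10 spots well above background. With overexpression it had 30.0 ± 6.66, from 21.99 to 42.5, with all 10 spots well above background. Of these 10 spots, 1 before scaling and 3 after it were no brighter than the brightest with Ad-NC. Since the Ad-NC array gives only a bound, the signal was at least 1.14-fold higher with overexpression after scaling, taking as the Ad-NC level the higher of the probe's own and the lowest among probes well above background. The first probe was at background, at 0.15 ± 4.56 and 3.14 ± 2.39. The software's total signal per miRNA, which sums over probes and sets detection by its own rule, detected it on both arrays, at 2.23 and 4.25, and the deposited log2 values differed by 0.61.

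By log2 difference, these totals, which underlie the log2 values the authors deposited, also put miR-1260b and then miR-1246 highest of the 7. miR-3653-3p, which is not among the 7, lay between them, at 0.87 by the totals and 0.61 as deposited. For miR-1260b the total was 31.3 with Ad-NC and 61.6 with overexpression, and the deposited log2 values differed by 0.65. For miR-1246 the totals were 17.6 and 26.7, and the deposited difference 0.27. For miR-1260a they were 37.0 and 36.0, with -0.37, and for miR-3656 7.59 and 6.70, with -0.51. miR-4485-5p had 232 and 250, miR-4485-3p 49.3 and 51.3, and miR-7641 190 and 227, with deposited differences of -0.22, -0.27 and -0.072. miR-1290 was not detected, and its deposited values are the fixed low values that undetected miRNAs share on each array, -4.71 and -5.04, which are no measured difference.

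The place of the entries relative to the other miRNAs varied less than their differences when the processing was changed, in part by construction. Subtracting the median of all measured miRNAs removes any constant that scaling adds to each difference. miR-1246 thus lay 0.58 above that median without scaling, with median scaling, under percentile scaling over all probes and as reported. In 15 of the 16 alternatives, with the median of all measured miRNAs subtracted, miR-1260b stayed 0.71 to 0.91 above it and miR-1246 0.40 to 0.62 above. miR-7641 stayed 0.11 to 0.29 above and miR-4485-5p 0.035 to 0.10 above. miR-1260a was above it in 0 of 15 and miR-3656 in 0 of the 14 in which it was measured, while miR-4485-3p lay on both sides, from -0.013 to 0.081. The remaining alternative kept dim probes, so all 2549 miRNAs enter and their median is 0. There miR-1260b lay at 0.35, miR-1246 at 0.20, miR-7641 at 0.078 and miR-4485-5p, below that median, at -0.11. The total signal per miRNA and the deposited values, with or without undetected ones, also repeated each other. Each of them had miR-1246 at 0.53 above the median. The counts of alternatives are therefore not counts of separate checks. All alternatives use the same 2 arrays, so they carry no information on the spread between cultures.

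**Figure D4:**
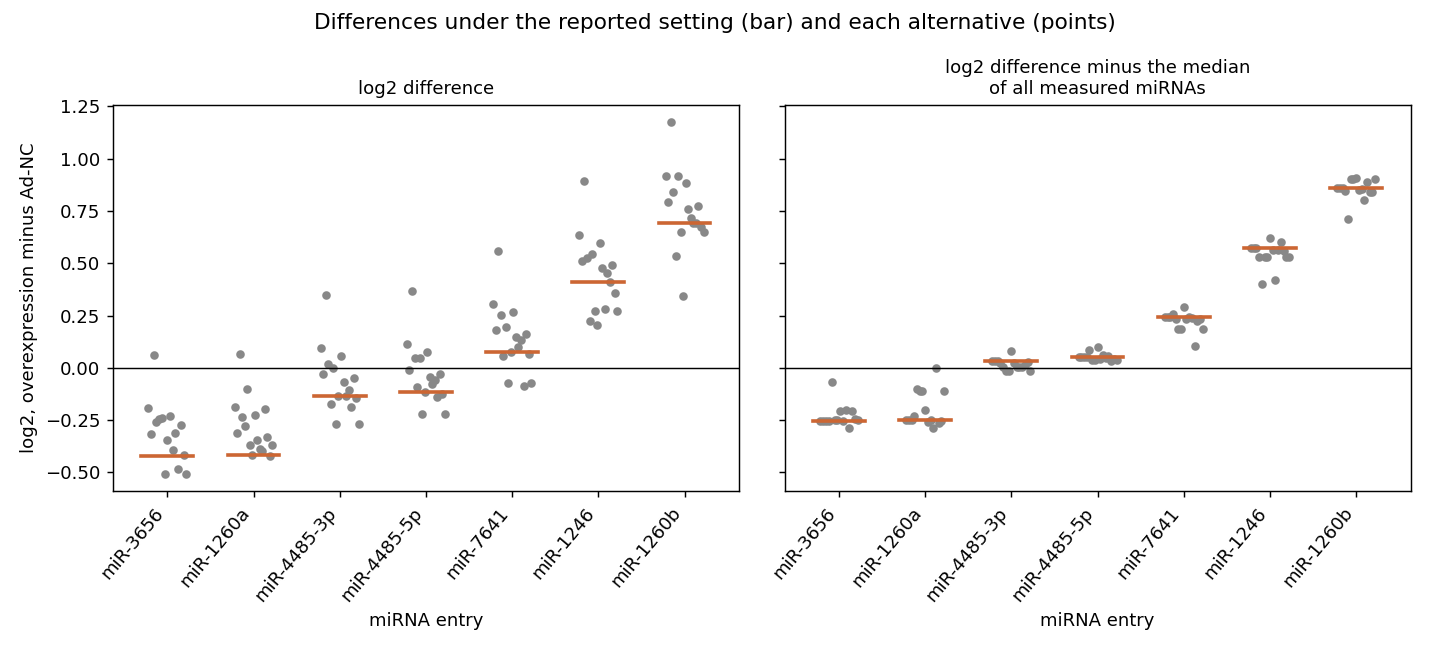
Log2 difference, overexpression minus Ad-NC (y axis), of the 7 measured entries (x axis) under the reported setting (orange bars) and each alternative (points), as such (left) and after subtracting the median of all measured miRNAs in that setting (right, without the alternative that has no filter on dim probes). On the right the points of miR-1260b lie between 0.71 and 0.91 and those of miR-1246 between 0.40 and 0.62, above the points of the other entries.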

How the data were processed

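Total RNA of HepG2 cells was labelled with Cy3 and hybridised by the authors to Agilent human miRNA arrays, 1 for Ad-NC and 1 for overexpression, which shared a slide and a scan. The authors deposited intensities read with Agilent Feature Extraction (version 10.10 in the submitters' processing notes, 11.5.1.1 in the file headers), background-subtracted and not normalized between arrays, on a grid annotated to hg19. They also deposited log2 values per miRNA, normalized with GeneSpring GX by a method not given in the sources used here. Flags of the software, deposited as 0 or 1 (other), give detection and outliers.

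Control and outlier spots were not used. The difference of a miRNA averages those of its probes that passed on both arrays, and its combined spot SD is the square root of the mean, over those probes, of the summed spot variances of both arrays. The entries and lists were chosen with earlier results of these data known. All 9 entries are named with every probe, together with the 2 miRNAs nearest to an entry past 1.5-fold, miRNAs sharing a seed, and those of a comparison list that were well above background. The number of arrays limits the precision. The steps were tested on simulated arrays made from the Ad-NC array, with known 2-fold changes. This checked the computation only and covered neither 1.5-fold changes nor the spread between real arrays. Of the alternatives, 14 were planned and 3 added after seeing the data, and normexp used an offset of 50 on median spot signals. RefSeq sequences and gene names are of GRCh38.p14, from which no coordinates were taken. Python 3.11.15, numpy 2.4.6, pandas 2.3.3, matplotlib 3.10.9, R 4.3.3 and limma 3.58.1 were used.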

Additional observations from a re-analysis of the deposited data

How the results depend on the processing

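No paired analysis was possible because there is 1 array per condition. Of the alternatives, 1 limit for both arrays, spots averaged before log2, and the deposited log2 values with undetected miRNAs kept at their fixed value were chosen after seeing the data. Where no reason stands beside a change, the cause was not tested. The count of 7 entries measured on both arrays stayed within 1.5 times in the 14 alternatives that give it. The count of entries past 1.5-fold, 1 as reported, was 2 without scaling and when any flagged spot sufficed, with miR-1246 as the second. It was 3 under 75th percentile scaling over all probes, which adds 0.48 to each difference and brought in miR-1246 and miR-3653-3p. It was 2 with the total signal per miRNA, with the deposited log2 values and with undetected ones kept at their fixed value, with miR-3653-3p as the second. It was 0 with normexp (0.53 for miR-1260b) and 0 at the stricter 2-fold. It was also 0 when dim probes were kept, where a probe of miR-1260b at the floor enters its mean. The difference of miR-1260b, 0.69, was 1.17 under 75th percentile scaling over all probes, 0.35 when dim probes were kept, both changes exceeding its spot SD, and it stayed above 0 in all 16 alternatives. That of miR-1246 was 0.20 to 0.89 in 16 alternatives, each closer to the reported value than its spot SD. Under that scaling over all probes, miR-1260a moved to 0.069, miR-3656 to 0.064, miR-4485-5p to 0.37, miR-4485-3p to 0.35 and miR-7641 to 0.56. Without scaling, miR-4485-5p was at 0.11, miR-4485-3p at 0.093 and miR-7641 at 0.30. When any flagged spot sufficed, miR-4485-5p was at 0.077 and miR-4485-3p at 0.057. miR-4485-5p, whose spot SD is small, also moved to -0.010 with median scaling, 0.047 with quantile normalization, 0.048 with the total signal per miRNA, and -0.22 with the deposited log2 values, with or without undetected ones. Over all measured miRNAs, 60 were higher and 169 lower as reported, against 132 and 97 without scaling, 90 and 139 with median scaling, 209 and 20 under 75th percentile scaling over all probes, 109 and 117 with quantile normalization and 142 and 137 with the total signal. Signal over background leaves miR-1290 without a difference and miR-3653-3p with a bound only.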

Other observations

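Of 12 further miRBase entries that resemble snoRNA or rRNA, 3 were well above background on both arrays, 2 with overexpression only and 7 on neither. Over all miRNAs, 8.98% were well above background on both arrays and 1.22% with overexpression only. None of the 3 was higher with overexpression after scaling, against 26.2% higher among all 229. Their log2 differences were -0.11 for miR-3651, which resembles a snoRNA, -0.14 for miR-3648 and -0.35 for miR-6087, both of which resemble rRNA. The median, -0.14, was close to that of all 229 miRNAs, -0.17. For miR-6087 the brighter of its probes had a signal before scaling of 1154 ± 45.8 (SD between spots) with Ad-NC and 1039 ± 35.5 with overexpression, and the combined spot SD of its difference was 0.071. For miR-3651 the brighter probe had 1729 ± 60.1 and 1769 ± 124. The brighter probe of miR-3648 had 36.5 ± 4.08 and 38.8 ± 4.40. Both arms of miR-664b, which resemble a snoRNA, had enough flagged spots to count as well above background with overexpression only. Their brighter probes had mean signals of 16.1 and 12.5 with Ad-NC and 16.2 and 20.1 with overexpression, too close to the limits for a bound above 1-fold.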
